A study of Homo sapiens with 9 samples.

Results

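The RNA sensors and interferon regulators described here are 10 human genes: the cytosolic RNA receptors RIGI (older symbol DDX58), IFIH1 and DHX58, the endosomal receptor TLR3, the RNA-activated kinase EIF2AK2, the adaptor MAVS, the transcription factors IRF3, IRF7 and IRF1, and the interferon gene IFNB1. They were chosen by function, for signs of a response to transfected RNA, with earlier results of these data known. They were matched by symbol to the Ensembl gene IDs of the count files, which list 36601 genes. All 10 were found, and 9 passed the filter on low counts, the exception being IFNB1. RNA came from LX2, an immortalised human line derived from the stellate cells of the liver, which lay down scar matrix. Cells were lipofected with 20 nM of an siRNA against YAP (siYAP), an siRNA against TAZ (siTAZ) or a non-targeting siRNA (siNT), and were cultured in medium with 10% serum for 7 days before harvest. There were 3 libraries for each siRNA. All 9 libraries therefore carried a transfected RNA duplex and the same lipid reagent, and no untransfected or lipid-only library was analysed here, so the siNT values are not those of unstimulated cells and an effect common to every transfection cannot be seen. An effect of losing YAP or TAZ cannot be told apart from an effect of the siRNA molecule used, because each target had 1 reagent label and the siRNA sequences were not given. The labels call the replicates biological without saying what separated them, so p-values measure the spread between these libraries, which may be technical.

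RIG-I (RIGI) and MDA5 (IFIH1) are helicases that recognise double-stranded RNA in the cytosol, RIG-I from triphosphate or blunt duplex ends and MDA5 from long duplexes, and both signal through MAVS on the mitochondrial outer membrane. MAVS and, for TLR3, the adaptor TRIF lead to kinases that phosphorylate IRF3 and IRF7, which switch on IFNB1. Secreted interferon then acts through its receptor and a complex of STAT proteins with IRF9 on many antiviral genes, among them the receptors themselves, so RNA levels of RIGI, IFIH1, DHX58 and IRF7 serve as readouts of the pathway as well as its components. Activation of MAVS, IRF3 and EIF2AK2 is mainly a matter of the protein's state, which RNA counts do not measure.

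Of the 9 tested genes, 7 were higher and 1 (MAVS) was lower after siYAP than after siNT, and IRF3 was not called (edgeR's quasi-likelihood test, p-values adjusted by Benjamini-Hochberg over 15560 genes, called at an adjusted p under 0.05). That comparison changed much of the transcriptome: 67.1% of all tested genes were called, 33.8% as higher and 33.4% as lower. After siTAZ, 6 of the 9 genes were higher than after siNT, none was lower, and MAVS, EIF2AK2 and IRF7 were not called. The background there was 34.6% of tested genes called, 16.4% as higher and 18.2% as lower. The median log2 fold change of the 9 genes was 0.53 for siYAP over siNT and 0.23 for siTAZ over siNT, against 0.02 and 0.01 over all tested genes. The 2 comparisons share the siNT libraries, so a like direction in both is not independent. Only IFIH1 and RIGI passed a 2-fold difference, both in siYAP over siNT, where 1681 of 15560 tested genes were over 2-fold higher.

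**Figure D1:**
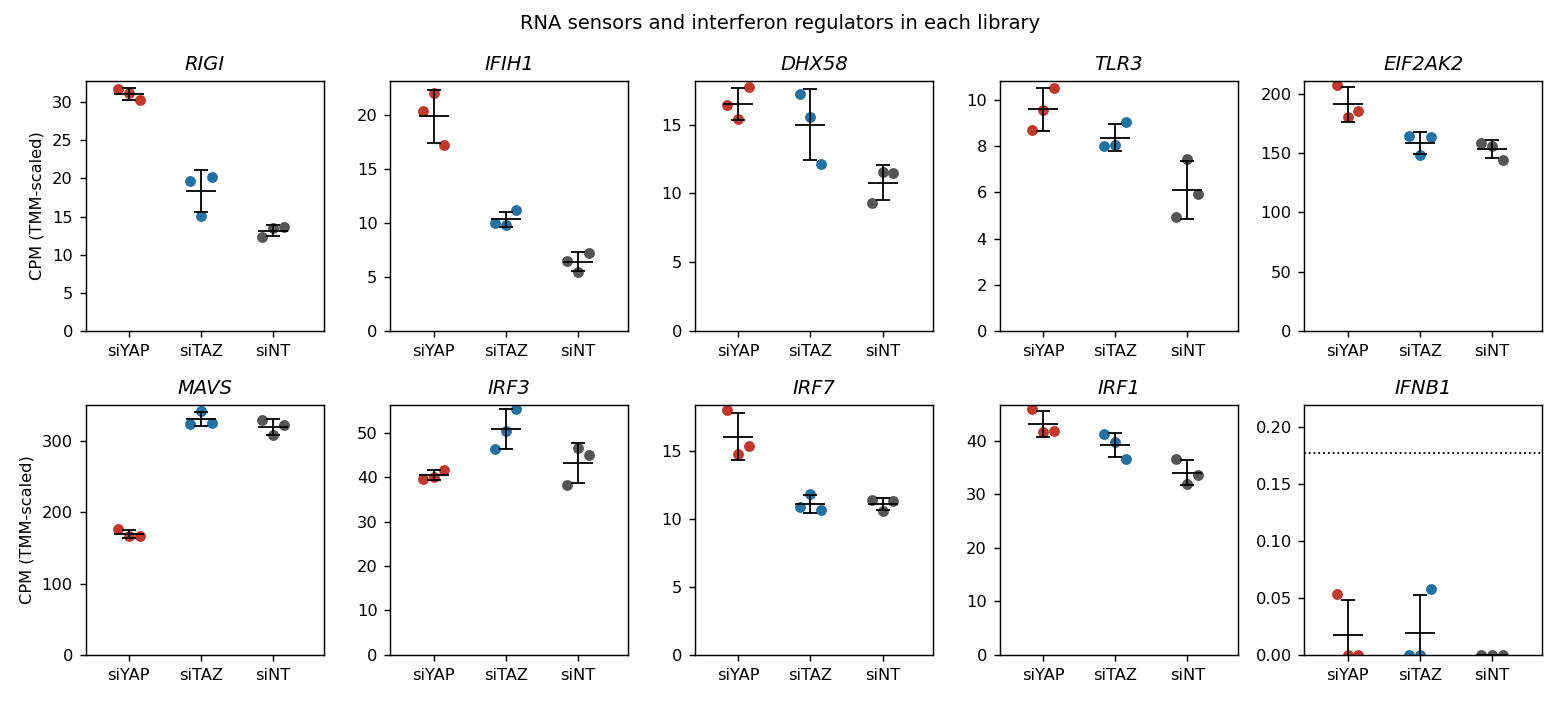
Abundance of the 10 genes in each library, in CPM (counts relative to a common library size, scaled by TMM) on linear axes that start at 0; points are libraries (siYAP, siTAZ, siNT), horizontal lines are means and bars are SD (n = 3). RIGI was at 31.0, 18.3 and 13.1 CPM on average in siYAP, siTAZ and siNT cells, MAVS was low in siYAP cells alone, and IFNB1 lay under the dotted line, which marks 3 counts.

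Libraries held 16498508 to 18752805 counts in genes, so 3 counts corresponded to 0.157 to 0.177 CPM, a floor that covers counting error only. YAP1, the gene of YAP, averaged 26.3 ± 1.49 CPM in siYAP, 170.0 ± 8.01 CPM in siTAZ and 209 ± 4.11 CPM in siNT libraries (SD, n = 3 each). WWTR1, the gene of TAZ, averaged 9.53 ± 0.917 CPM in siTAZ, 75.8 ± 0.522 CPM in siYAP and 62.0 ± 5.50 CPM in siNT libraries, so each label matched its target. Reads in no annotated gene made up 6.68 ± 0.75% in siYAP, 5.57 ± 0.05% in siTAZ and 4.93 ± 0.20% in siNT libraries, and mitochondrially encoded genes took 0.876 ± 0.175% of gene counts in siYAP, 1.53 ± 0.11% in siTAZ and 1.37 ± 0.11% in siNT libraries, with siYAP below all others. The part of these shares in the results below was not tested. Of 10 tested stellate and fibroblast markers, 3 were higher and 6 lower after siYAP, and 4 were higher and 2 lower after siTAZ, each against siNT. COL1A1 stood at 2046 CPM in siYAP, 6255 CPM in siTAZ and 4168 CPM in siNT libraries, COL1A2 stood at 449 CPM in siYAP, 569 CPM in siTAZ and 213 CPM in siNT libraries, and LRAT had no count in any library and DES had 0 to 14 counts. In bulk RNA, fewer cells expressing a gene and less RNA per cell cannot be told apart.

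RIGI (ENSG00000107201, chr9:32455705-32526324, minus strand, GRCh38 coordinates of GENCODE 29) encodes RIG-I, the cytosolic receptor for duplex RNA ends. Its abundance was 31.7, 31.1 and 30.3 CPM in the siYAP libraries, 19.6, 15.1 and 20.2 CPM in the siTAZ libraries, and 12.3, 13.5 and 13.6 CPM in the siNT libraries. The 3 groups did not overlap, and siTAZ replicate 2 lay nearest to siNT. RIGI was 2.36-fold higher in siYAP than in siNT cells (log2 fold change 1.24, SE 0.10, edgeR adjusted p = 3.01e-17) and 1.39-fold higher in siTAZ than in siNT cells (log2 fold change 0.48, SE 0.11, adjusted p = 0.000202). It was lower in siTAZ than in siYAP cells by a log2 fold change of -0.76 (SE 0.10, adjusted p = 2.98e-10). Among 10457 tested genes with a symbol and an average log2 CPM of at least 3, SLC4A7, IL4R and PTPRK followed RIGI most closely over the 9 libraries. Their root mean square differences from RIGI in centred log2 CPM were 0.087, 0.11 and 0.11, against a median of 0.56 over all candidates.

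The RIGI promoter window is shown because RIGI is both a sensor and a gene that interferon induces. It is the RefSeq window of 250 bases before to 50 after the annotated start, chr9:32526147-32526446 on the minus strand of GRCh38.p14, and in this and the other windows capitals mark every match on either strand to an IRF-type motif or to the NF-kB consensus.
RIGI: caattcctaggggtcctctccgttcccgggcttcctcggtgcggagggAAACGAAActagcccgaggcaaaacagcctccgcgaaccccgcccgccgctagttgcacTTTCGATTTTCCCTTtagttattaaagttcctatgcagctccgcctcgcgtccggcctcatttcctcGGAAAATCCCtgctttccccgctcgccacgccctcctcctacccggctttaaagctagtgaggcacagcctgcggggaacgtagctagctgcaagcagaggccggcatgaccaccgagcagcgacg
Position 0 is the start base and negative positions lie upstream. The window holds 3 matches to the short IRF core AANNGAAA, at -202 to -195 on the gene's strand and, sharing a base, at -143 to -136 and -136 to -129 on the opposite strand. It holds 1 NF-kB consensus match at -76 to -67. This short core, added after the promoters had been read, is contained in the longer core below and occurs in 22.8% of 35116 RefSeq windows of the same length, so a match is common.

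IFIH1 (ENSG00000115267, chr2:162267079-162318703, minus strand), which encodes MDA5, had the largest fold change of the 9 tested genes in both comparisons with siNT. It was at 20.4, 22.1 and 17.3 CPM in siYAP libraries, 10.0, 9.88 and 11.2 CPM in siTAZ libraries, and 6.54, 5.52 and 7.25 CPM in siNT libraries. The groups did not overlap, although the underlying numbers were small, with 96 to 128 counts per siNT library. IFIH1 was 3.09-fold higher after siYAP than after siNT (log2 fold change 1.63, SE 0.13, adjusted p = 1.64e-17) and 1.61-fold higher after siTAZ than after siNT (log2 fold change 0.68, SE 0.14, adjusted p = 5.49e-05). The siTAZ libraries were lower than the siYAP libraries by a log2 fold change of -0.94 (SE 0.12, adjusted p = 5.51e-10). LMBR1L, MXD1 and TRANK1 followed IFIH1 most closely over the 9 libraries, with root mean square differences of 0.13, 0.14 and 0.15 in centred log2 CPM against a median of 0.71.

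The IFIH1 window (chr2:162318635-162318934, minus strand, GRCh38.p14, RefSeq) is shown because it holds the most matches to the interferon-stimulated response element core among the windows read.
IFIH1: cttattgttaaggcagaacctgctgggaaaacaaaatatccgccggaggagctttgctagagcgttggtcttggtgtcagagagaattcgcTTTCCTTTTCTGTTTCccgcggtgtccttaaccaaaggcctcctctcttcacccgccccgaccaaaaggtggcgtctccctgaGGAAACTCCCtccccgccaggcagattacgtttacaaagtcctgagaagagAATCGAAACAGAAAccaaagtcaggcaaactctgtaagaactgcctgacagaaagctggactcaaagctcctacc
That core, spelled GAAA, any 2 bases, then GAAA, matched 3 times, at -159 to -150 and -153 to -144 on the opposite strand, which overlap, and at -21 to -12 on the gene's strand. It occurs in 3.57% of the 35116 RefSeq windows. The short IRF core matched 4 times within or beside the same stretches, and the NF-kB consensus matched at -76 to -67. A match is a description of the letters and not evidence of binding.

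DHX58 (ENSG00000108771, chr17:42101404-42112733, minus strand) encodes LGP2, a helicase without signalling domains that modulates RIG-I and MDA5. It stood at 16.4, 15.4 and 17.7 CPM in siYAP libraries, 17.2, 15.6 and 12.2 CPM in siTAZ libraries, and 9.31, 11.6 and 11.5 CPM in siNT libraries. Both knockdown groups lay above every siNT library, siTAZ replicate 3 only narrowly, and they overlapped each other. DHX58 was 1.53-fold higher in siYAP than in siNT cells (log2 fold change 0.61, SE 0.12, adjusted p = 1.56e-05) and 1.39-fold higher in siTAZ than in siNT cells (log2 fold change 0.47, SE 0.12, adjusted p = 0.00168). Between siTAZ and siYAP the log2 fold change was -0.14, with a 95% interval from -0.37 to 0.10 (adjusted p = 0.317). No difference was called there, and the interval does not show that the levels were equal.

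TLR3 (ENSG00000164342, chr4:186069152-186088069, plus strand) encodes the endosomal receptor for double-stranded RNA. Its levels were 8.67, 9.55 and 10.5 CPM in siYAP libraries, 8.01, 8.03 and 9.06 CPM in siTAZ libraries, and 4.95, 7.42 and 5.94 CPM in siNT libraries. Both knockdown groups lay above all siNT libraries, of which replicate 2 came closest. TLR3 was 1.57-fold higher after siYAP than after siNT (log2 fold change 0.65, SE 0.16, adjusted p = 0.000261). After siTAZ it was 1.37-fold higher than after siNT (log2 fold change 0.45, SE 0.16, adjusted p = 0.0219), but that call was lost without siNT replicate 1 (adjusted p = 0.166), siNT replicate 3 (adjusted p = 0.0644) or siTAZ replicate 3 (adjusted p = 0.0856). Between siTAZ and siYAP the log2 fold change was -0.20 (95% interval -0.50 to 0.11, adjusted p = 0.259). The TLR3 window held 1 match to the interferon-stimulated response element core, across the start at -4 to 5, and was the only one of the 7 windows found that held the TEAD core GGAATG, the motif of the factors through which YAP and TAZ act on genes. That core occurs in 14.0% of all RefSeq windows.

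EIF2AK2 (ENSG00000055332, chr2:37099210-37157065, minus strand) encodes PKR, a kinase that double-stranded RNA activates and that stops translation by phosphorylating eIF2 alpha. It was abundant in every library, with 207, 180 and 185 CPM after siYAP, 165, 148 and 163 CPM after siTAZ, and 159, 156 and 144 CPM after siNT. The siYAP libraries lay above all others, while siTAZ and siNT overlapped. EIF2AK2 was 1.25-fold higher in siYAP than in siNT cells (log2 fold change 0.32, SE 0.05, adjusted p = 1.17e-07). The siTAZ over siNT difference was a log2 fold change of 0.05 (95% interval -0.04 to 0.15, adjusted p = 0.446), and the siTAZ over siYAP difference was -0.27 (SE 0.05, adjusted p = 3.29e-06). Its promoter window held 1 match to the interferon-stimulated response element core, at -6 to 3. Exons of EIF2AK2 overlap GPATCH11 on the other strand, and since the strand setting of the counting was not given, reads of the pair cannot be told apart by strand. GPATCH11 averaged 42.9 CPM in siYAP, 38.2 CPM in siTAZ and 44.6 CPM in siNT libraries.

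**Figure D2:**
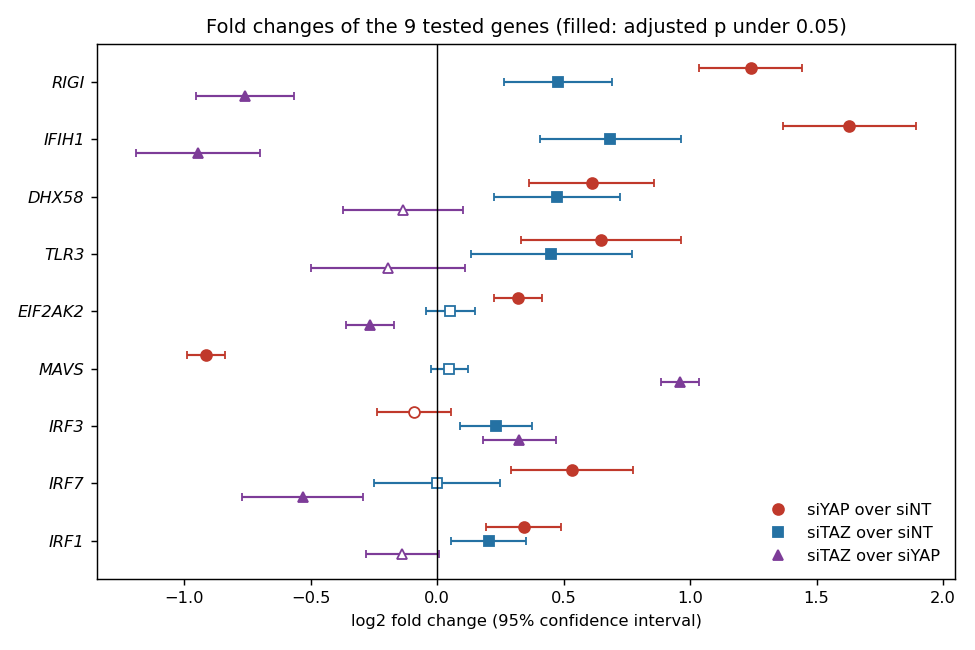
Log2 fold changes of the 9 tested genes with 95% confidence intervals from edgeR's fit over all 9 libraries; circles are siYAP over siNT, squares siTAZ over siNT and triangles siTAZ over siYAP, filled where the adjusted p was under 0.05. IFIH1 lies farthest right at 1.63 and MAVS is the only filled circle left of 0, at -0.91.

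MAVS (ENSG00000088888, chr20:3846799-3876123, plus strand), the adaptor below RIG-I and MDA5, was the 1 gene of the 9 that was lower after siYAP than after siNT. It stood at 176, 167 and 166 CPM in siYAP libraries, 324, 342 and 325 CPM in siTAZ libraries, and 330, 308 and 322 CPM in siNT libraries. All 3 siYAP libraries lay far below the other 6, which overlapped. MAVS was 46.9% lower in siYAP than in siNT cells (log2 fold change -0.91, SE 0.04, adjusted p = 9.54e-32) and 0.96 higher in siTAZ than in siYAP cells on the log2 scale (SE 0.04, adjusted p = 6.62e-33). The siTAZ over siNT log2 fold change was 0.05 (95% interval -0.03 to 0.12, adjusted p = 0.337). MAVS had 2812 or more counts in every library, and its fold changes had the smallest SE of the 9 genes.

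The MAVS window (chr20:3846584-3846883, plus strand, GRCh38.p14, RefSeq) is shown as the 1 window of the 7 that held none of the 5 motifs searched, hence no capitals.
MAVS: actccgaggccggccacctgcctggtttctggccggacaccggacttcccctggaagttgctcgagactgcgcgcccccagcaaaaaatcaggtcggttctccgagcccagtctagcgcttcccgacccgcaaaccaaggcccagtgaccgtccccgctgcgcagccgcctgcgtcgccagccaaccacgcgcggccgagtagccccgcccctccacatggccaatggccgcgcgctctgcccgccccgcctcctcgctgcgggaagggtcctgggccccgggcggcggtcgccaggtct
Its GC content was 71.7%, against 60.3% for the RIGI window and 50.7% for the IFIH1 window. The absence of these letters says nothing about binding outside or inside this window.

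The receptors and their adaptor thus moved in opposite directions after siYAP. The summed abundance of RIGI, IFIH1 and DHX58 was 38.8, 41.2 and 39.3% of the MAVS abundance in siYAP libraries, 14.5, 11.9 and 13.4% in siTAZ libraries, and 8.55, 9.93 and 10.1% in siNT libraries. These are ratios of CPM without scaling by length, and serve to compare libraries rather than genes. The 3 groups did not overlap in this ratio.

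IRF3 (ENSG00000126456, chr19:49659569-49665875, minus strand) encodes the constitutive factor that the kinases TBK1 and IKK epsilon phosphorylate. It was at 39.7, 40.1 and 41.7 CPM in siYAP libraries, 46.4, 50.4 and 55.4 CPM in siTAZ libraries, and 38.1, 46.5 and 44.9 CPM in siNT libraries. The siTAZ libraries lay above all siYAP libraries, and siNT overlapped both. For siYAP over siNT the log2 fold change was -0.09 (95% interval -0.24 to 0.05, adjusted p = 0.257); without siNT replicate 1 it was -0.18 and was called (adjusted p = 0.0357). IRF3 was 1.17-fold higher after siTAZ than after siNT (log2 fold change 0.23, SE 0.07, adjusted p = 0.00784), a call lost without siNT replicate 1 (adjusted p = 0.143) or siTAZ replicate 3 (adjusted p = 0.104). Against siYAP, the siTAZ libraries were higher by 0.33 on the log2 scale (SE 0.07, adjusted p = 6.48e-05). BCL2L12 overlaps IRF3 exons on the other strand and averaged 34.8 CPM in siYAP, 44.5 CPM in siTAZ and 41.3 CPM in siNT libraries, with a log2 fold change of -0.25 for siYAP over siNT (adjusted p = 0.00259).

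IRF7 (ENSG00000185507, chr11:612553-615999, minus strand) encodes the interferon-inducible partner of IRF3 that amplifies type I interferon production. Its levels were 18.0, 14.8 and 15.3 CPM in siYAP libraries, 10.8, 11.8 and 10.6 CPM in siTAZ libraries, and 11.4, 10.6 and 11.3 CPM in siNT libraries. The siYAP libraries lay above the other 6, which overlapped. IRF7 was 1.45-fold higher in siYAP than in siNT cells (log2 fold change 0.53, SE 0.12, adjusted p = 8.52e-05) and lower in siTAZ than in siYAP cells by a log2 fold change of -0.53 (SE 0.12, adjusted p = 8.38e-05). For siTAZ over siNT the log2 fold change was 0.00 (95% interval -0.25 to 0.25, adjusted p = 0.998). IRF7 abundance as a share of IRF3 abundance was 45.3, 36.8 and 36.7% in siYAP libraries, 23.3, 23.4 and 19.1% in siTAZ libraries, and 29.8, 22.8 and 25.1% in siNT libraries, with siTAZ and siNT overlapping.

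IRF1 (ENSG00000125347, chr5:132481609-132490798, minus strand) encodes a factor induced by interferon gamma and by NF-kB. It stood at 46.0, 41.7 and 41.7 CPM after siYAP, 41.2, 39.7 and 36.6 CPM after siTAZ, and 36.6, 31.9 and 33.6 CPM after siNT. The siYAP libraries lay above all others, and siTAZ replicate 3 and siNT replicate 1 were nearly level. IRF1 was 1.27-fold higher in siYAP than in siNT cells (log2 fold change 0.34, SE 0.07, adjusted p = 4.48e-05). For siTAZ over siNT it was 1.15-fold higher (log2 fold change 0.20, SE 0.07, adjusted p = 0.0267), but the call was lost without siNT replicate 2 (adjusted p = 0.159), siNT replicate 3 (adjusted p = 0.0769), siTAZ replicate 1 (adjusted p = 0.132) or siTAZ replicate 2 (adjusted p = 0.0704). The siTAZ over siYAP log2 fold change was -0.14 (95% interval -0.28 to 0.01, adjusted p = 0.0883). IRF1-AS1, listed as C5orf56 in GENCODE 29, overlaps IRF1 exons on the other strand and averaged 6.74 CPM in siYAP, 4.37 CPM in siTAZ and 4.88 CPM in siNT libraries, with a log2 fold change of 0.46 for siYAP over siNT (adjusted p = 0.0364). The IRF1 window held 1 match to the NF-kB consensus (-50 to -41), found in 11.3% of windows, and 1 to the GAS motif TTCNNNGAA (-124 to -116), found in 7.66%.

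IFNB1 (ENSG00000171855, chr9:21077105-21077963, minus strand), the gene of interferon beta and the direct output of IRF3 and IRF7, was at or near 0 throughout. It had 1 count in siYAP replicate 1, 1 count in siTAZ replicate 3 and 0 counts in the other 7 libraries. All values lay under the floor of 3 counts, or 0.157 to 0.177 CPM, so no fold change is given, and a difference was not detectable at this depth. The window is shown because it covers the enhancer that IRFs and NF-kB share (chr9:21077893-21078192, minus strand, GRCh38.p14, RefSeq).
IFNB1: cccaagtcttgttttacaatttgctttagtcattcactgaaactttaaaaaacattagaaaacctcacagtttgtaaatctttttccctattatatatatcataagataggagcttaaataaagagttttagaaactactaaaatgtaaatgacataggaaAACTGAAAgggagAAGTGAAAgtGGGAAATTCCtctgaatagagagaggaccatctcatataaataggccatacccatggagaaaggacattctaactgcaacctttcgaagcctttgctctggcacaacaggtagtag
It holds the short IRF core at -89 to -82 and -76 to -69 and the NF-kB consensus at -66 to -57, all on the gene's strand. It also holds 1 GAS match at -218 to -210, left in lower case. The other type I and type III interferons gave the same picture: none of 19 listed genes passed the filter, and 17 had no count in any library. The exceptions were IFNE, with 0 to 10 counts per library, and IFNA1, with 0 to 3 counts. Day 7 was the 1 time sampled.

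**Figure D3:**
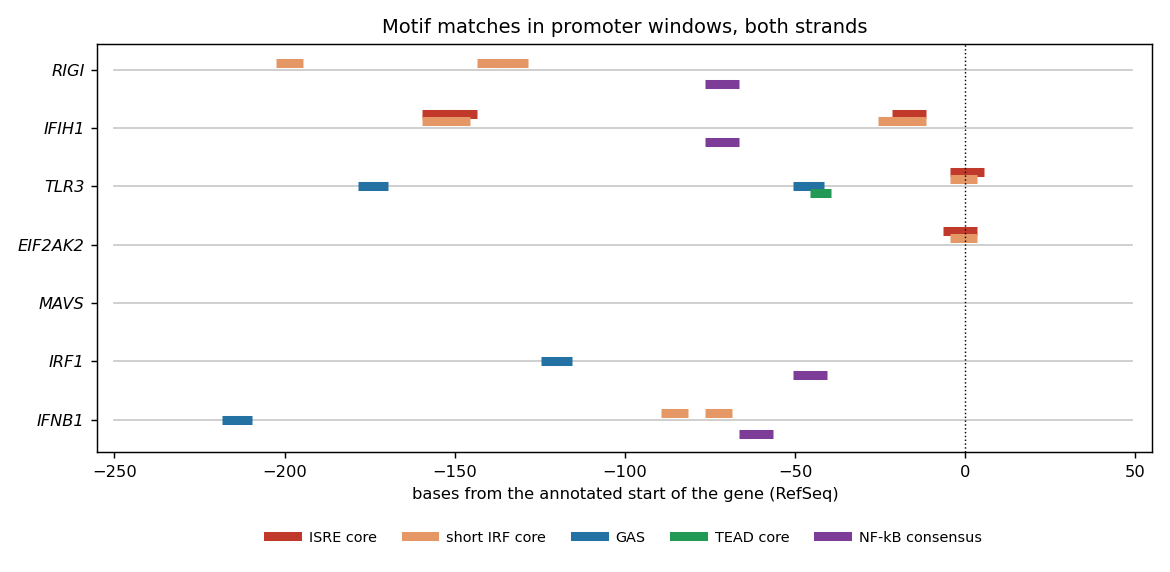
Motif matches on either strand in the RefSeq promoter windows of the 7 genes that had one, by distance in bases from the annotated start (dotted line); colours name the motif, and overlapping matches of 1 motif merge. IFIH1 holds 3 matches to the interferon-stimulated response element core (ISRE core), TLR3 and EIF2AK2 hold 1 each at the start, and MAVS holds none.

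Promoter windows were found for 7 of the 10 genes. The interferon-stimulated response element core was in 3 of the 7, the short IRF core in 5, the NF-kB consensus in 4, GAS in 3 and the TEAD core in 1. MAVS, the gene without a match, was also the gene that was lower after siYAP, but 7 windows are too few to set the letters against the RNA values.

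Scaled by exon length, MAVS was the most abundant gene in siTAZ and siNT cells, at 28.1 and 27.2 CPM per kb of exon, and EIF2AK2 was the most abundant in siYAP cells. In siYAP cells EIF2AK2 at 17.8 CPM per kb was followed by MAVS at 14.4, IRF3 at 10.7, RIGI at 7.13, IRF7 at 6.10, IRF1 at 5.53, DHX58 at 4.30, IFIH1 at 3.90 and TLR3 at 1.43 CPM per kb. In that order IRF7 overlapped IRF1 and DHX58 overlapped IFIH1 across libraries. In siNT cells MAVS was followed by EIF2AK2 at 14.2, IRF3 at 11.4, IRF1 at 4.36, IRF7 at 4.21, RIGI at 3.02, DHX58 at 2.81, IFIH1 at 1.26 and TLR3 at 0.908 CPM per kb. There IRF1 overlapped IRF7, RIGI overlapped DHX58, and IFIH1 overlapped TLR3. The order in siTAZ cells was that of siNT cells, with EIF2AK2 at 14.8 and IRF3 at 13.4 CPM per kb overlapping, as did IRF7 at 4.22, RIGI at 4.21 and DHX58 at 3.90 CPM per kb. On this scale RIGI stood above IRF1 and IRF7 in siYAP cells and below both in siNT cells. That switch depends on the exon lengths used, which need not be those of the transcripts expressed, and other lengths were not tried. In CPM without scaling by length, RIGI was below IRF1 and above IRF7 in siYAP and siNT cells alike.

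Set against each other, siTAZ and siYAP cells differed in 6 of the 9 tested genes. MAVS and IRF3 were higher after siTAZ than after siYAP, RIGI, IFIH1, EIF2AK2 and IRF7 were lower, and DHX58, TLR3 and IRF1 were not called. In this comparison 66.2% of all tested genes were called, 33.0% as higher and 33.2% as lower. The median log2 fold change of the 9 genes was -0.20, against -0.01 over all tested genes. Separation of the individual libraries gave nearly the same counts. In siYAP over siNT, 7 of the 9 genes were higher in every siYAP library than in every siNT library, as were 35.8% of all tested genes, and MAVS was lower in every library, as were 34.7%. In siTAZ over siNT 5 of the 9 were higher without overlap, as were 21.8% of all tested genes.

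The wider pathway was described with lists of genes chosen with earlier results of these data known. Each list count against siNT stands beside the share of all tested genes. That share was 33.8% higher and 33.4% lower after siYAP, and 16.4% higher and 18.2% lower after siTAZ. No list was tested as a set. Among 25 cofactors and regulators of the cytosolic receptors, 11 were higher and 11 lower after siYAP than after siNT, with a median log2 fold change of -0.09. ZNFX1, an RNA helicase that senses viral RNA on mitochondria, was higher at 367 ± 8.45 CPM in siYAP cells and lower at 146 ± 2.54 CPM in siTAZ cells, against 173 ± 3.11 CPM in siNT cells (SD, n = 3 each). TRIM25, a ubiquitin ligase linked to RIG-I activation, was lower after both knockdowns, at 56.4 ± 1.97 CPM in siYAP and 96.2 ± 4.78 CPM in siTAZ cells, against 114 ± 4.71 CPM in siNT cells. After siTAZ 7 were higher and 7 lower than after siNT. ZCCHC3, a cofactor of RIG-I and MDA5, was higher after both knockdowns, at 110 ± 10.2 CPM in siYAP and 97.1 ± 4.08 CPM in siTAZ cells, against 59.7 ± 0.926 CPM in siNT cells. NLRX1, described as a brake on MAVS signalling, was likewise higher at 20.2 ± 0.262 CPM in siYAP and 16.2 ± 1.59 CPM in siTAZ cells, against 10.4 ± 1.47 CPM in siNT cells.

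**Figure D4:**
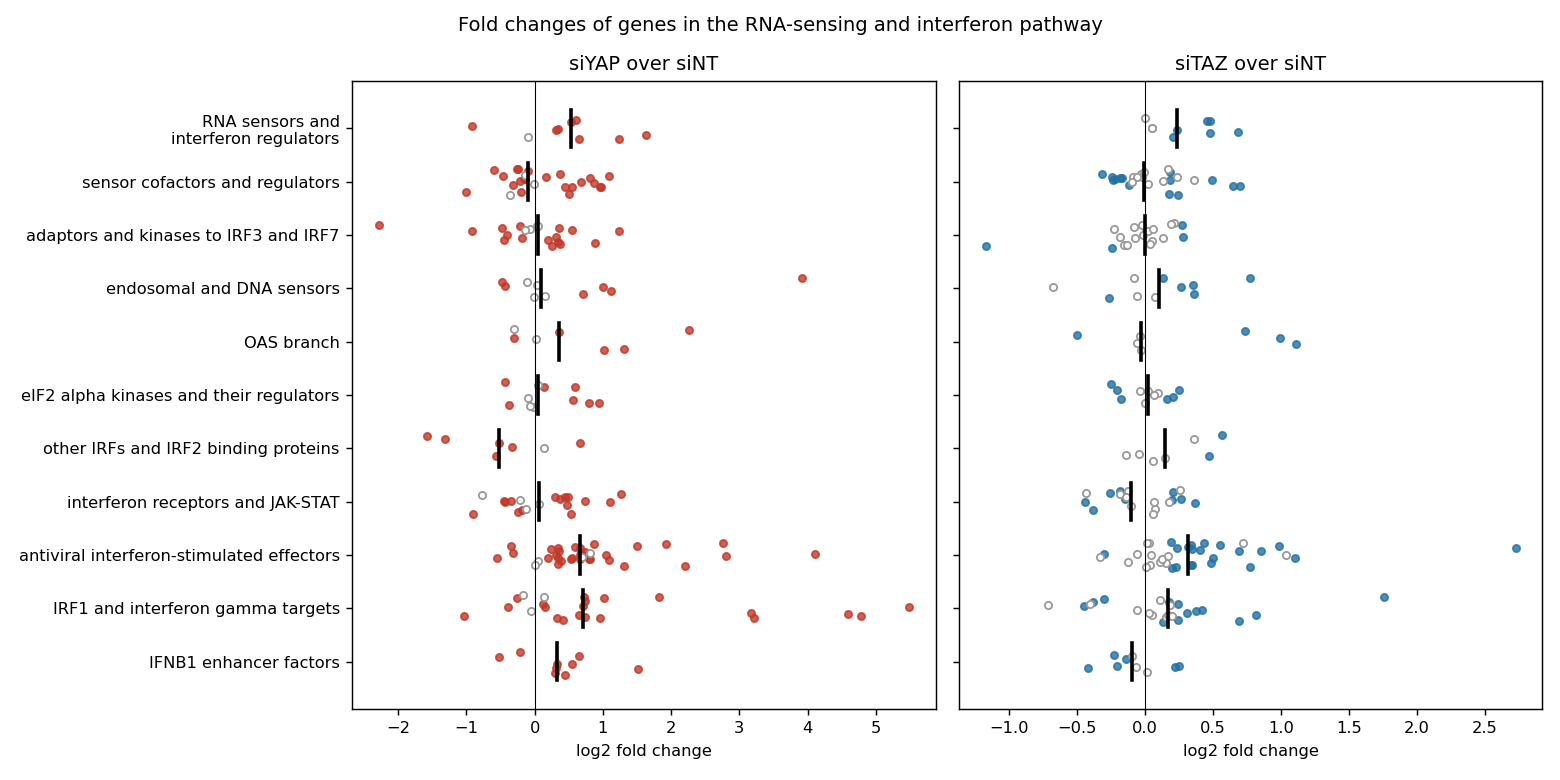
Log2 fold changes of the tested genes of each list, siYAP over siNT at left and siTAZ over siNT at right on axes of different range; points are genes, filled where the adjusted p was under 0.05, and thick bars are medians. Medians were 0.53 and 0.23 for the sensors and regulators and 0.66 and 0.31 for the antiviral effectors, while those of the cofactors lay near 0.

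Of 20 adaptors and kinases between the receptors and IRF3 or IRF7, 9 were higher and 7 lower after siYAP, and 2 were higher and 2 lower after siTAZ, each against siNT. IKBKE, the inducible IRF3 kinase, averaged 49.1 ± 0.848 CPM in siYAP and 23.9 ± 0.664 CPM in siTAZ cells, against 21.0 ± 0.562 CPM in siNT cells. TICAM1, which encodes TRIF, averaged 33.9 ± 2.38 CPM in siYAP and 15.7 ± 1.03 CPM in siTAZ cells, against 18.4 ± 2.06 CPM in siNT cells, and both genes were called in siYAP over siNT and not in siTAZ over siNT. RIPK1, a kinase downstream of TRIF and death receptors, was much lower, with 14.2 ± 0.290 CPM in siYAP and 69.2 ± 3.81 CPM in siNT cells (log2 fold change -2.28, edgeR adjusted p = 9.53e-38), and at 71.1 ± 1.62 CPM in siTAZ cells it was not called. TICAM2, an adaptor of TLR4, was lower after both knockdowns, at 15.3 ± 0.378 CPM in siYAP and 12.8 ± 0.973 CPM in siTAZ cells, against 28.9 ± 0.674 CPM in siNT cells. TBK1, the constitutive IRF3 kinase, was not called in either comparison with siNT.

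Of 15 other endosomal and DNA sensors and their regulators, 10 were tested, of which 4 were higher and 2 lower after siYAP, and 5 were higher and 1 lower after siTAZ. STING1, the adaptor of cytosolic DNA sensing, averaged 59.5 ± 0.318 CPM in siYAP and 51.0 ± 1.89 CPM in siTAZ cells, against 29.9 ± 2.32 CPM in siNT cells. IFI16, a DNA sensor, averaged 191 ± 2.18 CPM in siYAP and 84.6 ± 1.84 CPM in siTAZ cells, against 88.3 ± 3.45 CPM in siNT cells, and was called in siYAP over siNT only among these 2 comparisons. TLR7, an endosomal receptor for single-stranded RNA that was singled out after its values were seen, had 78, 60 and 43 counts in siYAP libraries, 0, 2 and 5 counts in siTAZ libraries, and 2, 4 and 5 counts in siNT libraries. TLR7 passed the filter on low counts through its siYAP libraries, so these counts are a description and no test of TLR7 is given. It is nevertheless included in the 10 tested genes above and in the 4 higher after siYAP.

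The OAS branch, in which double-stranded RNA makes OAS proteins synthesise a short oligoadenylate messenger, had 7 tested genes, of which 4 were higher and 1 lower after siYAP and 3 were higher and 1 lower after siTAZ. OAS1 averaged 12.8 ± 2.18 CPM in siYAP and 5.31 ± 0.560 CPM in siTAZ cells, against 2.67 ± 0.275 CPM in siNT cells. OAS2 was higher in both comparisons with siNT as well, at log2 fold changes of 1.31 for siYAP and 0.74 for siTAZ. PDE12, which degrades that messenger, was lower in both, at log2 fold changes of -0.30 for siYAP and -0.50 for siTAZ. Beside EIF2AK2, 11 eIF2 alpha kinases and regulators gave 5 higher and 2 lower after siYAP, and 3 higher and 3 lower after siTAZ. PPP1R15A, whose product reverses eIF2 alpha phosphorylation, was higher at 249 ± 8.48 CPM in siYAP cells and lower at 115 ± 5.63 CPM in siTAZ cells, against 130 ± 4.35 CPM in siNT cells. DNAJC3, an inhibitor of PKR, was higher at 178 ± 4.25 CPM in siYAP cells and was not called at 107 ± 2.90 CPM in siTAZ cells, against 102 ± 5.34 CPM in siNT cells.

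Below the interferons, 19 receptor and JAK-STAT genes split into 9 higher and 6 lower after siYAP and 4 higher and 5 lower after siTAZ. SOCS3, a feedback inhibitor of cytokine signalling, was higher at 65.1 ± 4.46 CPM in siYAP cells and lower at 19.8 ± 2.69 CPM in siTAZ cells, against 26.9 ± 1.82 CPM in siNT cells. STAT2, a partner of IRF9 in the interferon response complex, averaged 74.7 ± 8.89 CPM in siYAP and 106 ± 0.983 CPM in siTAZ cells, against 88.5 ± 3.25 CPM in siNT cells, and was lower after siYAP (log2 fold change -0.24, edgeR adjusted p = 0.000153) and higher after siTAZ (log2 fold change 0.26, edgeR adjusted p = 0.000101). IRF9, the DNA-binding member of that complex, averaged 56.3 ± 11.0 CPM in siYAP and 52.7 ± 3.69 CPM in siTAZ cells, against 35.6 ± 1.02 CPM in siNT cells. It was the 1 gene higher after siYAP among the 7 tested other IRFs and IRF2 binding proteins, of which 5 were lower; after siTAZ 2 were higher and none lower. IRF8 was lower at 2.28 ± 0.0726 CPM in siYAP cells and was not called at 8.73 ± 2.09 CPM in siTAZ cells, against 6.82 ± 1.60 CPM in siNT cells.

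Of 36 antiviral genes that interferon induces, 35 were tested. After siYAP 28 were higher and 3 lower than after siNT (median log2 fold change 0.66), and after siTAZ 20 were higher and 1 lower (median 0.31). IFI44L averaged 9.72 ± 3.48 CPM in siYAP and 3.74 ± 1.05 CPM in siTAZ cells, against 0.557 ± 0.141 CPM in siNT cells, and TRIM22, a restriction factor, averaged 99.4 ± 7.27 CPM in siYAP and 30.4 ± 1.96 CPM in siTAZ cells, against 14.2 ± 2.32 CPM in siNT cells. IFI44L passed the filter on low counts through its siYAP and siTAZ libraries, so its values are a description. It is included in the 28 and 20 genes called higher. The list did not move as a block: IFIT1, which binds foreign RNA ends, was lower in siYAP than in siNT cells (log2 fold change -0.55, edgeR adjusted p = 0.000112) and was not called after siTAZ, while its neighbour IFIT3 was higher at log2 fold changes of 0.87 for siYAP and 0.31 for siTAZ. ISG15, a ubiquitin-like modifier, was higher after siYAP (log2 fold change 0.81) and was not called after siTAZ (log2 fold change -0.06, adjusted p = 0.748).

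**Figure D5:**
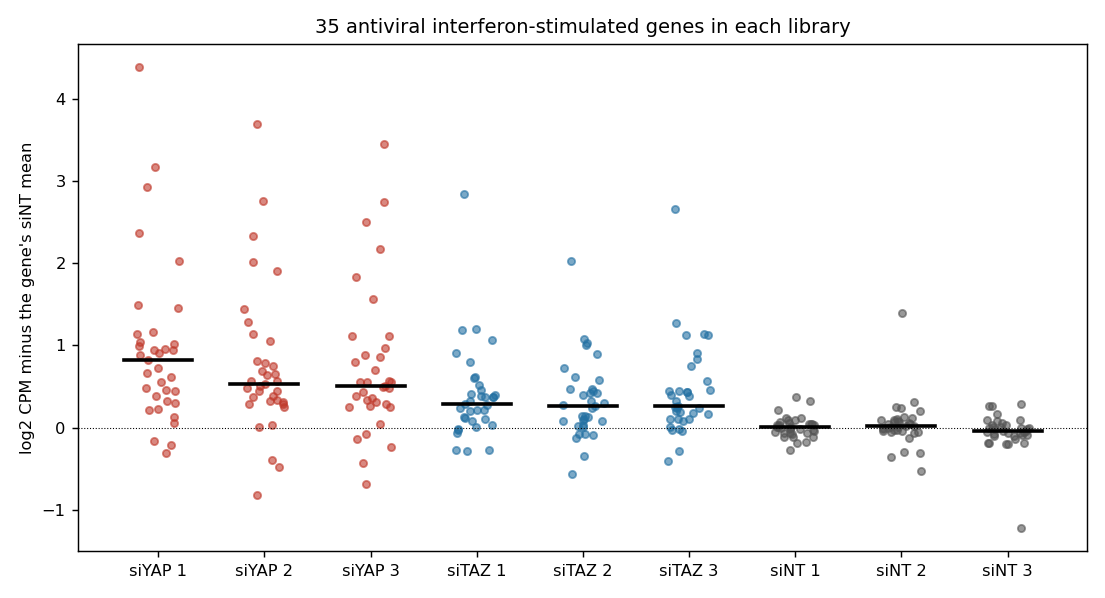
Log2 CPM of 35 antiviral interferon-stimulated genes in each library minus each gene's siNT mean; points are genes and thick bars are medians over the list. Medians were 0.82, 0.53 and 0.51 in the siYAP libraries, 0.28, 0.26 and 0.26 in the siTAZ libraries and 0.01, 0.02 and -0.04 in the siNT libraries.

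By library, the median of these 35 genes relative to the siNT mean was 0.82, 0.53 and 0.51 in log2 CPM (prior count 2) in the siYAP libraries, 0.28, 0.26 and 0.26 in the siTAZ libraries, and 0.01, 0.02 and -0.04 in the siNT libraries. The siNT values lie near 0 by construction. Among siYAP libraries, replicate 1 held the highest value for 25 of the 35 genes, and the share over all tested genes was not computed. The other lists were mixed. Replicate 1 was highest for 14 of 25 cofactors and regulators, 5 of the 9 sensors and regulators, and 5 of 7 genes of the OAS branch. It was highest for 11 of 23 targets of IRF1 and interferon gamma, 4 of 9 IFNB1 enhancer factors and 7 of 19 receptor and JAK-STAT genes. Replicate 1 was highest for 7 of 20 adaptors and kinases, level with replicate 3, and for 3 of 11 eIF2 alpha kinases and regulators. It was highest for 2 of 10 endosomal and DNA sensors and 1 of 7 other IRFs and IRF2 binding proteins. It had the largest share of reads in no gene, 7.49% against 6.01 and 6.53% in the other siYAP libraries. The part of that share was not tested. Without replicate 1, 27 of the antiviral genes were higher and 3 lower in siYAP than in siNT cells.

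Among 23 tested targets of IRF1 and interferon gamma, 17 were higher and 3 lower after siYAP, and 10 were higher and 3 lower after siTAZ. CCL5, a chemokine gene that IRFs and NF-kB both regulate, averaged 46.8 ± 1.96 CPM in siYAP and 3.53 ± 0.20 CPM in siTAZ cells, against 1.05 ± 0.677 CPM in siNT cells. GBP1, a classical interferon gamma target, was lower in siYAP cells at 97.8 ± 8.82 CPM and higher in siTAZ cells at 249 ± 6.38 CPM, against 201 ± 6.82 CPM in siNT cells. All 9 factors of the IFNB1 enhancer were called in siYAP over siNT, 7 higher and 2 lower; in siTAZ over siNT 2 were higher and 4 lower. HMGA1, the architectural protein of that enhancer, averaged 740 ± 24.9 CPM in siYAP and 194 ± 9.98 CPM in siTAZ cells, against 260 ± 6.36 CPM in siNT cells.

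Markers of other cell types that could bring interferon genes with them were read beside these results. Summed over 12 macrophage and leukocyte markers, of which 6 were tested, abundance was 128 to 133 CPM in siYAP, 23.4 to 25.8 CPM in siTAZ and 34.7 to 39.1 CPM in siNT libraries. CD68, a lysosomal protein also made by other cells, gave most of this sum, while PTPRC, the pan-leukocyte marker, averaged 0.147 CPM in siYAP, 0.427 CPM in siTAZ and 2.60 CPM in siNT libraries. Of the 6 tested, 2 were higher and 1 lower after siYAP, and none was higher and 2 were lower after siTAZ, each against siNT. PTPRC passed the filter on low counts through its siNT libraries, so its values are a description. It is included among the genes called lower in both comparisons. Summed over 7 markers of plasmacytoid dendritic cells, the main interferon producers of blood, abundance was 88.0 to 96.1 CPM in siYAP, 48.1 to 51.4 CPM in siTAZ and 91.5 to 96.6 CPM in siNT libraries, nearly all from TCF4, and the defining genes LILRA4 and CLEC4C had no count in any library. Of the 3 tested markers, 2 of low abundance were over 2-fold higher after siYAP than after siNT, and none was lower. Only 1 of the 3 was higher in every siYAP library than in every siNT library. After siTAZ 1 of the 3, TCF4, was lower and none was higher. The 10 hepatocyte markers summed to 15.1 to 18.4 CPM in siYAP, 3.00 to 3.71 CPM in siTAZ and 4.08 to 5.98 CPM in siNT libraries, with TTR at 0 and ALB at 0 or 1 count. SERPINA1 gave most of that sum in siYAP libraries, at 14.7 ± 1.72 CPM in siYAP and 1.47 ± 0.664 CPM in siTAZ, against 1.89 ± 0.143 CPM in siNT libraries. The 8 endothelial markers summed to 12.8 to 16.6 CPM in siYAP, 7.85 to 9.06 CPM in siTAZ and 13.2 to 16.4 CPM in siNT libraries. These sums hold opposite changes, since all 5 tested endothelial markers were called in siYAP over siNT, 2 higher and 3 lower: PECAM1 averaged 6.39 CPM in siYAP and 0.519 CPM in siNT libraries, and CDH5 averaged 0.364 CPM in siYAP and 5.21 CPM in siNT libraries. PECAM1 passed the filter on low counts through its siYAP libraries and CDH5 through libraries other than siYAP, so their values are a description. Both are included in the 2 higher and 3 lower. The 8 epithelial markers summed to 230 to 242 CPM in siYAP, 542 to 627 CPM in siTAZ and 670 to 682 CPM in siNT libraries. Of these, 4 were tested, and in each comparison with siNT SOX9 was higher and KRT8 and KRT18 were lower. The part of these markers in the sensor results was not tested.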

How the data were processed

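RNA of 9 LX2 cultures was sequenced, 3 per siRNA, and grouped by sample title. Each library has a deposited file of whole-number read counts by Ensembl ID, not normalized. Per the submitters' processing notes, the tools were STAR 2.5.0c, HTSeq, Trim Galore, Picard and SAMtools, with no order given. The build named there is mm10, a mouse build, whereas the gene IDs are human, so build, annotation and strandedness of the counting are unknown. HTSeq leaves out reads that overlap several genes, which made up 6.33 to 6.91% of reads per library and lowers genes with overlapping neighbours.

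The fits used edgeR 4.0.16 and limma 3.58.1 under R 4.3.3. filterByExpr (minimum count 10, minimum total 15) left 15560 genes. Libraries were scaled by TMM, and a robust quasi-likelihood model used all 9 libraries (common biological coefficient of variation 0.0469). Tests were two-sided, with Benjamini-Hochberg adjustment over all tested genes. The fit was run on simulated counts with few genes changed and the same spread for all genes, to check that set fold changes were recovered. That setting differs from these data, and error rates were not part of the check. Alternatives were DESeq2 1.42.0, RLE scaling, other filters, a replicate block, the compared groups alone, a threshold of 0.01, and leaving out each library. From each list, up to 2 called genes per direction with the largest change were picked, given a mean log2 CPM of 1 or more. Only some of the picked genes are named here. Further genes were named for their role after their values were seen. The 10 genes and the lists were chosen with earlier results of these data known. Symbols came from a gene name table, coordinates from GENCODE 29, and promoters from RefSeq (GRCh38.p14). Chi-square per gene between replicates was 2.54 to 5.07, where sampling noise gives 1, so no library was a copy of another.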

Additional observations from a re-analysis of the deposited data

How the results depend on the processing

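The counts called over all genes and over the 9 tested sensors and regulators stayed within 1.5 times the reported values in the 16 alternatives run for each comparison; the counts of the pathway lists were not recomputed, except 1 for the antiviral list. Genes called ranged from 9245 to 10655 for siYAP over siNT, from 4034 to 5521 for siTAZ over siNT and from 9055 to 10540 for siTAZ over siYAP. Of the 9 tested sensors and regulators, 8 to 9, 4 to 6 and 6 were called in these comparisons. Of 405 recomputed fold changes of these genes, 389 kept direction and call, 9 lost the call, 1 gained it and 6 changed sign. The lost calls were IRF1, IRF3 and TLR3 in siTAZ over siNT, each on leaving out a library. All sign changes were uncalled values near 0. The log2 fold change of DHX58 in siTAZ over siYAP was 0.0034 without siTAZ replicate 3 and ranged from -0.24 to 0.0034 over the libraries left out. That of IRF7 in siTAZ over siNT was -0.0045 with DESeq2, -0.0034 without a filter, -0.0044 with RLE scaling, and -0.048 to 0.031 over the libraries left out. Samples with the same replicate number deviated together little if at all. Correlations were -0.0099 to 0.0545 for 9 pairs with the same number and -0.0405 to 0.0356 for 18 pairs with different numbers. Such values cannot exclude that the libraries were paired by design. With the replicate block 10434, 5413 and 10268 genes were called, and 8, 6 and 6 of the 9. RLE scaling moved the median of all genes by -0.0052 at most on the log2 scale. IFNB1 lay under the floor of 3 counts in every library, so differences in it were not detectable at this depth. The alternative without siYAP replicate 1 for the antiviral list was chosen after seeing the data.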
